A study of Mus musculus with 14 samples.

Results

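Mesp1, Mesp2, Msgn1, Tcf15, Hand1 and Hand2 encode transcription factors of the basic helix-loop-helix (bHLH) family that mark mesoderm and its early derivatives. They were examined as a group of 6 named genes among the 19938 genes measured in mouse embryonic stem (ES) cells in which blood and endothelial factors were switched on. Each was read from the probe set that the platform annotation assigns to that symbol alone, and each of the 6 had 1 such probe set. In the controls Mesp1, Mesp2, Msgn1 and Hand1 rose between day 2.5 and day 3. After 24 h of induction Mesp1, Mesp2 and Msgn1 were lower than in the day 3 controls, Mesp1 by 20.5-fold, Mesp2 by 3.69-fold and Msgn1 by 2.70-fold in RMA values, which can understate the change of a gene whose lower level is near background. Mesp1 was the only one of the 6 that also passed the test at 12 h.

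The cells were doxycycline-inducible ES cells, kept on PMEF feeder cells and differentiated as embryoid bodies (EBs), aggregates in which germ layers form. Doxycycline at 1 µg per ml from day 2 drove ER71/Etv2, GATA2 and Scl, regulators of blood and vessel formation, for 6 h (1 array), 12 h (3 arrays) or 24 h (3 arrays). Controls were the same lines without doxycycline at day 2.25 (1 array), day 2.5 (3 arrays) and day 3 (3 arrays), and the labels give their genotype as wild-type. Replicates 1 and 2 came from the line iEGS and replicate 3 from the line iB1. Scl, whose gene is Tal1, is named in the titles and genotype labels, while the design text and the descriptions name ER71/Etv2 and GATA2. A group given doxycycline without the factors was not analysed here, so an effect of the drug and of the factors cannot be told apart. The RNA came from whole EBs, so fewer cells of a type and less RNA per cell cannot be told apart either.

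Factors of this family bind DNA as dimers at a short sequence called the E-box, usually one tissue-restricted member together with a widely expressed E protein. Id proteins bind E proteins but not DNA and so hold the dimers back. In the gastrulating embryo Mesp1 marks the first mesoderm that leaves the primitive streak, including the precursors of the heart and vessels. Mesp2 and Msgn1 act in the presomitic mesoderm, Tcf15 in the somites and Hand1 and Hand2 in the lateral and extraembryonic mesoderm and the heart. Scl itself is a bHLH factor that pairs with E proteins.

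The promoters of Mesp1, Mesp2 and Msgn1 are shown because these are the 3 members called lower than the day 3 controls at 24 h. Each line gives the 250 bases before the RefSeq start on GRCm38.p6, on the gene's own strand. The Mesp1 window is chr7:79793591-79793840 on the minus strand, that of Mesp2 chr7:79810477-79810726 on the plus strand and that of Msgn1 chr12:11208949-11209198 on the minus strand. Mesp1 and Mesp2 are neighbours in the RefSeq gene table. Capitals mark matches, on either strand, to 4 kinds of letters. The E-box was searched as CANNTG, the ETS letters, bound by factors such as Etv2, as GGAAGT and the T-box letters as AGGTGT. For GATA factors the letters AGATAA were searched, and a run of TGATAA counted as a match too, as did one of AGATAG.
Mesp1: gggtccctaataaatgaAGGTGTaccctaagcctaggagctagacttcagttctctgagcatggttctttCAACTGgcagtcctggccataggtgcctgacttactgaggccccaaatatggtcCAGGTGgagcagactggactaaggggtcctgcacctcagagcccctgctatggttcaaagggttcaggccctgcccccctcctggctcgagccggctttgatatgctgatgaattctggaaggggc
Mesp2: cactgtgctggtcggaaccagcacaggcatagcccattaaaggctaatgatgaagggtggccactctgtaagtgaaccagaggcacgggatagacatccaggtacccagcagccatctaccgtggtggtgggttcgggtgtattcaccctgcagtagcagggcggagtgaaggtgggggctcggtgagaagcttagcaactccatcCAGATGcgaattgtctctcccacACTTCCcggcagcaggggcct
Msgn1: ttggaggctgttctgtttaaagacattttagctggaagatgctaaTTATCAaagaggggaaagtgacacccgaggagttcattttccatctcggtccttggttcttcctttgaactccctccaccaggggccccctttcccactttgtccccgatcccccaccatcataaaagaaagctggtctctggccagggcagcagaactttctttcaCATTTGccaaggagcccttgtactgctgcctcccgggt
The Mesp1 window held the T-box letters AGGTGT starting 233 bases before the start and E-boxes CAACTG and CAGGTG at 180 and 126 bases. Its window had no match to the ETS or GATA letters searched. In the Mesp2 window an E-box CAGATG began 44 bases before the start and the ETS letters, read as ACTTCC, 21 bases before it. The Msgn1 window held the GATA letters as TTATCA at 205 bases and an E-box CATTTG at 38 bases. E-box letters occur in 66.2% of the 32841 RefSeq windows of this length, ETS letters in 19.7%, GATA letters in 22.3% and T-box letters in 11.8%. The E-box CAGGTG can overlap the T-box letters, but no marked matches overlap in these 3 windows. A match is a description of the sequence and not a measured binding site.

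The values are log2 RMA levels, where 1 unit is a factor of 2, and levels are compared only within a gene. The induced genes were raised in the arrays labelled as induced. Etv2 was higher by 2.95 at 6 h, Gata2 by 4.38 and Tal1 by 2.09 on the log2 scale, with 1 array on each side. At 12 h and 24 h all 3 factors were higher, with limma adjusted p values from 1.07e-08 to 4.9e-05. Pairwise correlations between arrays over all genes ran from 0.9513 to 0.9954. Replicate 3 of the 24 h induced group stood apart from the other arrays, with the lowest mean correlation, 0.9656. Replicate 1 of that group came next, at 0.9765, and had the lowest weight in a fit that weights arrays, 0.27 against 0.318 for replicate 3. The arrays of that group differed from each other by 0.37 to 0.62 (root mean square, log2). In the other replicated groups this difference was 0.24 to 0.42, so the 24 h group carries the largest error, and values that rest on its replicate 3 are given without it too. The limma SEs and intervals pool the spread of the 4 replicated groups, so they can be too small for contrasts with the 24 h group.

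**Figure D1:**
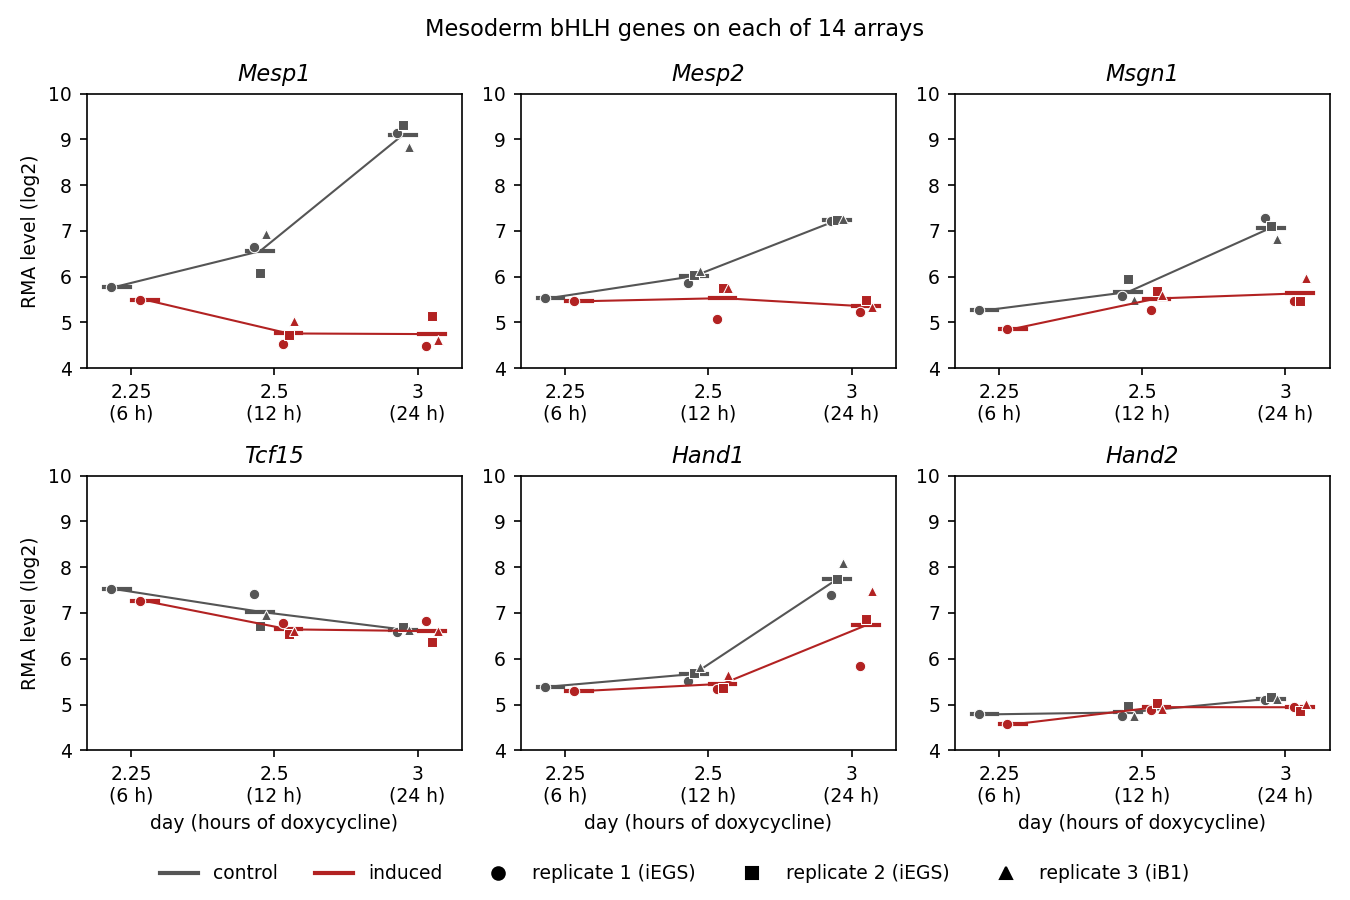
Log2 RMA level of each gene on the 14 arrays (y axis) against the day of differentiation with the hours of doxycycline (x axis). Points are single arrays, with the shape giving the replicate, bars are group means and lines join them. Control Mesp1 climbs to a mean of 9.10 at day 3 while induced Mesp1 stays near 4.75, and the Hand1 means are highest at day 3 in both conditions.

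Mesp1, the earliest of these factors in the primitive streak, had control log2 levels of 6.65, 6.08 and 6.94 at day 2.5 and 9.15, 9.32 and 8.84 at day 3 in replicates 1 to 3. The induced log2 levels were 4.52, 4.72 and 5.03 at 12 h and 4.49, 5.14 and 4.61 at 24 h. All induced arrays at 12 h and 24 h lay below every control array of the series, the lowest of which was the day 2.25 control at 5.78. At 12 h the log2 mean of 4.76 ± 0.26 (SD, n = 3) was 3.47-fold below the control mean of 6.56 ± 0.44 (SD, n = 3) (log2 difference -1.80 ± 0.23, SE, limma adjusted p = 0.000581). At 24 h the mean of 4.75 ± 0.35 stood against 9.10 ± 0.24, a log2 difference of -4.36 ± 0.23 (SE, limma adjusted p = 5.41e-08). Each replicate showed this separately, with log2 differences of -4.66, -4.18 and -4.22 at 24 h and -2.13, -1.35 and -1.91 at 12 h. Replicate 3, the iB1 line, lay within the range of the iEGS replicates at both times.

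The larger Mesp1 difference at 24 h went with a rise in the controls. Between day 2.5 and day 3 control Mesp1 rose by 2.55 ± 0.23 (SE, log2, limma adjusted p = 0.000119). The induced groups at 12 h and 24 h differed by -0.01, with a 95% interval from -0.51 to 0.48 (limma adjusted p = 0.989). Whether these low levels sit at the floor of the RMA values was not tested, so equal values here do not show equal amounts of RNA. The 24 h induced level was also lower than that of the day 2.5 controls, by 1.81 on the log2 scale (limma adjusted p = 0.000182). The control-day difference and the 24 h effect share the day 3 controls and are not independent of each other. The change of the effect from 12 h to 24 h was -2.56 ± 0.33 (SE, log2, limma adjusted p = 0.00358). From low to high the Mesp1 group means ran induced 24 h, induced 12 h, induced 6 h, control day 2.25, control day 2.5 and control day 3. Induced 24 h and 12 h do not differ beyond their spread, and the 6 h and day 2.25 groups have a single array each, so their place has no error.

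Mesp2, which sets segment boundaries in the presomitic mesoderm, followed the same course over a smaller range. Its control log2 levels were 5.86, 6.04 and 6.13 at day 2.5 and 7.21, 7.24 and 7.25 at day 3. Induced arrays read 5.08, 5.75 and 5.76 at 12 h and 5.23, 5.48 and 5.34 at 24 h. The 3 control arrays of day 3 were nearly identical and stood above all other arrays of the series, and the induced arrays lay below the matched controls at both times without overlap. The 12 h log2 difference of -0.48 ± 0.17 (SE), with a 95% interval from -0.85 to -0.11, did not pass the test (limma adjusted p = 0.383). The 24 h log2 difference of -1.88 ± 0.17 (SE) did pass (limma adjusted p = 8.04e-06), and it was -1.98, -1.76 and -1.91 in the single replicates. Control Mesp2 rose by 1.22 ± 0.17 (SE, log2) from day 2.5 to day 3 (limma adjusted p = 0.00273). Its effect changed from 12 h to 24 h by -1.40 ± 0.25 (SE, log2, limma adjusted p = 0.0178), a call that was lost when 1 of 6 single arrays was left out (adjusted p from 0.0512 to 0.0717). It was also lost without all arrays of replicate 2 (0.729) or of replicate 3 (0.50). The single arrays were replicate 1 of control day 2.5, all 3 replicates of control day 3 and replicates 2 and 3 of induced 12 h. The lowest Mesp2 group means were induced 24 h at 5.35 and the single 6 h array at 5.46, and the highest was control day 3 at 7.23. The 24 h induced level was lower than that of the day 2.5 controls by 0.66 on the log2 scale (limma adjusted p = 0.0351), and this call was lost without any 1 of the 9 arrays of control day 2.5, control day 3 and induced 24 h (adjusted p from 0.0505 to 0.148).

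Msgn1, a regulator of presomitic mesoderm maturation downstream of Wnt and Tbx6, rose in the controls between the days and was lower with induction at 24 h. Control log2 levels were 5.57, 5.94 and 5.48 at day 2.5 and 7.28, 7.11 and 6.81 at day 3, while induced levels were 5.27, 5.69 and 5.61 at 12 h and 5.46, 5.48 and 5.97 at 24 h. The groups overlapped at 12 h and were apart at 24 h, where replicate 3 of the induced group came nearest to the controls. At 12 h the log2 difference was -0.14 ± 0.19 (SE), with a 95% interval from -0.55 to 0.27 (limma adjusted p = 0.999). At 24 h it was -1.43 ± 0.19 (SE, limma adjusted p = 0.000229), and -1.60 without replicate 3 of the induced group. The replicates gave -1.82, -1.63 and -0.84. Replicate 3, the iB1 line, showed the smallest difference, and with 1 replicate of that line a difference between lines was not tested. Control Msgn1 rose by 1.41 ± 0.19 (SE, log2) from day 2.5 to day 3 (limma adjusted p = 0.00211). In the induced groups the log2 difference between 24 h and 12 h was 0.11 (limma adjusted p = 0.869). The change of the effect between the times was -1.29 ± 0.27 (SE, log2) and missed the threshold (limma adjusted p = 0.0587), but passed it with the replicate number as a block (0.0294), without replicate 3 of induced 24 h (0.021) and without replicate 2 of control day 2.5 (0.0498). The 24 h induced mean of 5.64 differed from the day 2.5 control mean of 5.66 by -0.03 (log2, limma adjusted p = 0.952). Control day 3 was the highest of the Msgn1 groups and the single 6 h array, at 4.86, the lowest.

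Tcf15, needed for the somites to form an epithelium and also present in ES cells that start to differentiate, did not pass the test in any contrast. Its control log2 levels were 7.40, 6.71 and 6.96 at day 2.5 and 6.59, 6.69 and 6.63 at day 3. The induced arrays read 6.78, 6.55 and 6.60 at 12 h and 6.83, 6.37 and 6.61 at 24 h. The highest Tcf15 value of the series was the 7.51 of the day 2.25 control, followed by replicate 1 of control day 2.5 and by the 6 h array at 7.26, and the induced and control arrays overlapped at 12 h and 24 h. The log2 difference was -0.38 at 12 h, with a 95% interval from -0.76 to -0.01 (limma adjusted p = 0.687), and -0.04 at 24 h, from -0.41 to 0.34 (limma adjusted p = 0.949). The replicates disagreed in sign at 24 h, with 0.24, -0.32 and -0.02. Between control day 2.5 and day 3 Tcf15 differed by -0.39 ± 0.18 (SE, log2, limma adjusted p = 0.731), and the day 3 arrays lay below the day 2.5 arrays without overlap. Ordered by mean, induced 24 h at 6.60, control day 3 at 6.64 and induced 12 h at 6.64 were followed by control day 2.5 at 7.03. The first 3 of these differ by less than their spread.

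Hand1, a factor of the extraembryonic and lateral mesoderm, of trophoblast giant cells and of the heart, rose with time in the controls. Its log2 levels were 5.51, 5.68 and 5.81 in the controls of day 2.5 and 7.39, 7.74 and 8.09 at day 3, a rise of 2.07 ± 0.31 (SE, limma adjusted p = 0.00382). In the induced cells they were 5.35, 5.36 and 5.65 at 12 h and 5.84, 6.86 and 7.48 at 24 h. The 24 h arrays thus spanned the space between the 12 h arrays and the day 3 controls, with replicate 3 inside the control range and replicate 1 near the day 2.5 level. The mean at 24 h was 6.73 ± 0.83 (SD, n = 3), against 7.74 ± 0.35 (SD, n = 3) in the controls. At day 2.5 and 12 h the SDs were 0.15 and 0.17. The SE pools these groups, so intervals for Hand1 contrasts with induced 24 h can be too narrow. The log2 difference of -1.01 ± 0.31 (SE) had a 95% interval from -1.67 to -0.35 and missed the threshold (limma adjusted p = 0.0812). It passed with the replicate number as a block (adjusted p = 0.00547) and without replicate 3 of induced 24 h, at -1.38 (adjusted p = 0.00627), and it was -0.57 without replicate 1 of that group. Within replicates the difference was negative in 3 of 3, with -1.54, -0.88 and -0.61.

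Between the induced groups the Hand1 means at 12 h and 24 h lay 1.28 ± 0.31 (SE, log2) apart, with a 95% interval from 0.62 to 1.93, and just missed the threshold (limma adjusted p = 0.0511). The within-replicate differences of 0.49, 1.51 and 1.83 were all positive, and the contrast passed with the replicate block (adjusted p = 0.00237) and without replicate 1 of induced 24 h, at 1.72 (adjusted p = 0.00135). Without replicate 3 of induced 24 h the difference was 0.90, the lowest of the settings, and did not pass. Against the day 2.5 controls the 24 h induced arrays differed by 1.06 (log2, limma adjusted p = 0.0566), again past the threshold with the block (0.00332) and without replicate 1 of induced 24 h (0.000574). Here too the lowest value, 0.69, came without replicate 3 of induced 24 h and did not pass. At 12 h the log2 difference from the controls was -0.22, with a 95% interval from -0.87 to 0.44 (limma adjusted p = 0.999). The change of the Hand1 effect from 12 h to 24 h, -0.79 ± 0.43 (SE, log2), did not pass (limma adjusted p = 0.953). Of 7 trophoblast markers listed, 4 were measured (Cdx2, Elf5, Tpbpa and Plac1), and 0 passed the test at 12 h or 24 h. Their mean log2 level per array was 3.78 to 4.06 in the day 3 controls and 3.86 to 4.09 at 24 h. The markers Prl3d1, Prl3b1 and Gcm1 had no matching probe set, and whether trophoblast cells carried the Hand1 signal was not tested.

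Hand2, a factor of the heart, limb buds and branchial arches, stayed low. Control log2 levels were 4.75, 4.98 and 4.75 at day 2.5 and 5.11, 5.16 and 5.13 at day 3, and induced levels were 4.88, 5.04 and 4.91 at 12 h and 4.94, 4.86 and 5.02 at 24 h. All 14 arrays lay between 4.57 and 5.16, and their mean fell under the 40th percentile of genes, which served as a filter on dim genes in 1 of the other settings. The 24 h arrays lay below the day 3 controls without overlap, but the log2 difference of -0.19 ± 0.12 (SE), with a 95% interval from -0.46 to 0.08, did not pass (limma adjusted p = 0.507). At 12 h it was 0.11, from -0.15 to 0.38 (limma adjusted p = 0.999). The control-day difference of 0.30 ± 0.12 (SE, log2) did not pass either (limma adjusted p = 0.614).

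At 6 h, with 1 induced and 1 control array and hence no test, the 6 genes differed by -0.40 to -0.07 on the log2 scale. Mesp1 read 5.49 against 5.78, Msgn1 4.86 against 5.26 and Hand1 5.29 against 5.39. Of the 6, 0 reached a 2-fold difference. The share of all genes below the control array was not counted, and their median difference was 0.0004. With 1 array on each side, the shared sign of the 6 genes does not show an early fall. Over all genes 0.221% were at least 2-fold higher and 0.135% at least 2-fold lower. The residual SD of the replicated groups was 0.33 for Mesp1, 0.22 for Mesp2 and 0.46 for Hand1, each larger than the 6 h difference. It was 0.25 for Msgn1, 0.22 for Tcf15 and 0.087 for Hand2, each smaller than the 6 h difference. This SD is the spread of a single array, and a difference between 2 arrays varies more. A 6 h difference larger than it therefore does not show an effect.

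Counted together, 1 of 6 was lower at 12 h, where 0.577% of all genes were lower and 0.813% higher, and 0 of 6 was higher. At 24 h 3 of 6 were lower and 0 of 6 higher, against 3.43% and 2.03% of all genes. The induced arrays lay below all control arrays of the same day for 2 of 6 at 12 h (7.72% of all genes) and for 4 of 6 at 24 h (10.9%). From control day 2.5 to day 3, 4 of 6 rose and 0 of 6 fell, against 0.562% and 0.196% of all genes, and the day 3 arrays lay above all day 2.5 arrays for 5 of 6 (6.12%). For 1 of 6, Tcf15, they lay below all day 2.5 arrays, and the share of all genes with that order is not given here. The change of the effect between the times was called negative for 2 of 6 and positive for 0 of 6, against 0.326% and 0.1% of all genes. Between the induced groups 0 of 6 was called, where 0.557% of genes were higher and 1.25% lower at 24 h. Against the day 2.5 controls the 24 h arrays were lower for 2 of 6 and higher for 0 of 6, with 4.03% and 2.3% over all genes. Since the members were chosen with results of these data known, the shares describe them and are no test.

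**Figure D2:**
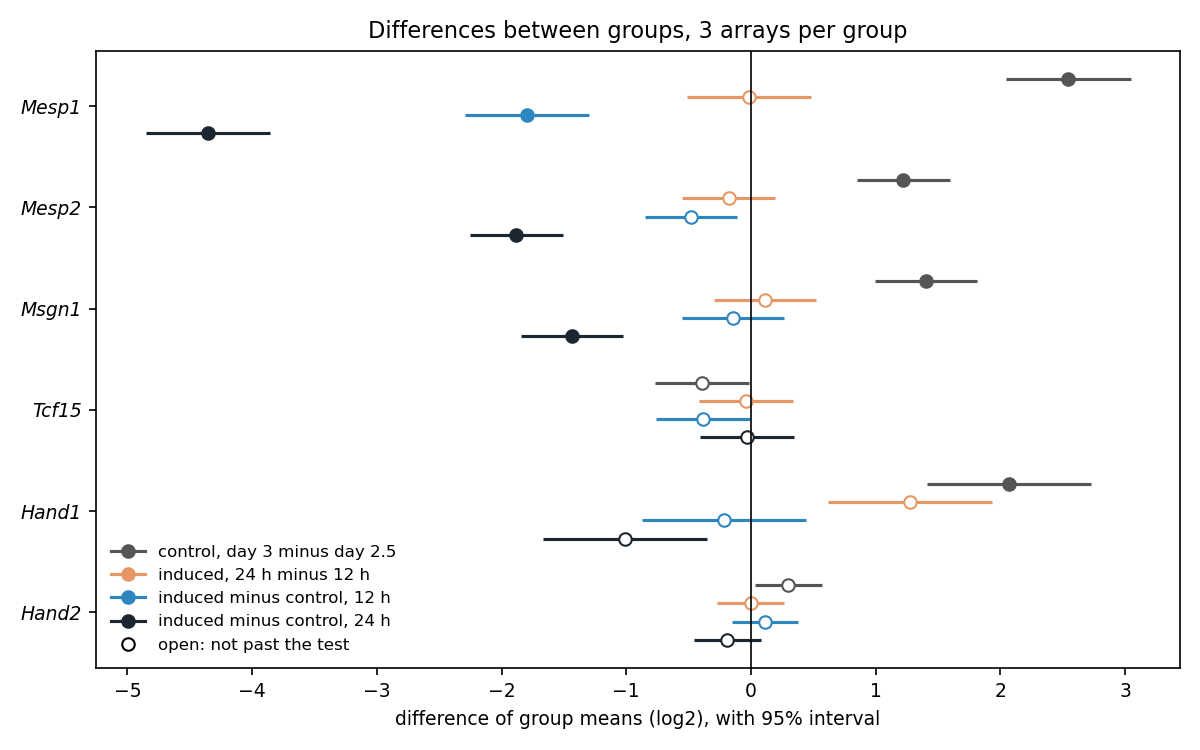
Difference of group means on the log2 scale (x axis) for each gene (y axis), with 95% intervals from limma and 3 arrays per group. Filled points passed an adjusted p of 0.05 and open points did not. Mesp1 is at -1.80 and -4.36 at 12 h and 24 h, and Hand1 is the gene whose induced groups lie farthest apart, at 1.28.

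The E proteins, which pair with all of these factors, did not pass the test. Of 3 measured, 0 was called at 12 h or 24 h. The median log2 difference at 24 h was -0.45, against -0.004 over all genes, with Tcf4 at -0.51 (limma adjusted p = 0.0859) and Tcf3 at -0.45 (limma adjusted p = 0.256). Tcf4 passed with the replicate block (adjusted p = 0.0306) and without replicate 1 of induced 24 h (adjusted p = 0.0305). Of the 4 Id genes, the inhibitors of the family, 1 was higher at 24 h and 0 at 12 h, with a list median of 0.40 at 24 h. That gene, Id2, had a log2 mean of 8.37 ± 0.29 (SD, n = 3) after 24 h and 6.83 ± 0.21 in the day 3 controls. Its arrays did not overlap, and the log2 difference was 1.54 ± 0.17 (SE, limma adjusted p = 5.37e-05). Control Id2 itself fell by 0.81 between the days (log2, limma adjusted p = 0.0472, a call lost in 15 of 24 other settings), and the induced groups differed by 0.26 (log2, limma adjusted p = 0.593).

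Of 13 measured genes known to act upstream of Mesp1, Mesp2 and Msgn1, 4 were lower at 12 h and 8 at 24 h, and 0 was higher. The list median was -0.09 at 12 h and -0.90 at 24 h on the log2 scale. Mixl1, a homeobox factor of the primitive streak, averaged 10.43 ± 0.13 (SD, n = 3) in the day 3 controls and 6.58 ± 0.058 after 24 h, a log2 difference of -3.84 ± 0.25 (SE, limma adjusted p = 4e-07). Eomes, the T-box factor that activates Mesp1, differed by -3.08 ± 0.20 (SE, log2, limma adjusted p = 3.89e-07) at 24 h. At 12 h it was -0.90 (limma adjusted p = 0.0411), a call lost without replicate 1 or 3 of control day 2.5, replicate 2 or 3 of induced 12 h, replicate 2 of induced 24 h or any day 3 control (adjusted p from 0.0601 to 0.215). Tdgf1, the Nodal co-receptor, differed by -2.17 (log2, limma adjusted p = 2.29e-07) and Lef1, a nuclear partner of Wnt signalling, by -1.84 (log2, limma adjusted p = 2.62e-05). At 12 h Mixl1 was already lower (log2 difference -1.74, limma adjusted p = 0.00167), a call lost without the iB1 replicate (0.146). Tdgf1 was at -0.64 at 12 h (limma adjusted p = 0.0249), a call lost without any 1 of the arrays of control day 2.5 and induced 12 h (adjusted p from 0.0659 to 0.124). Without replicate 1 of control day 2.5 neither Eomes nor Tdgf1 was called at 12 h, while Lef1, not called there, passed with the replicate block (0.00371). Tbx6, an activator of Msgn1 and Mesp2 that was picked out after its values were seen, rose by 1.13 in the controls between the days (limma adjusted p = 0.00559). Its 24 h effect was a log2 difference of -1.03 (limma adjusted p = 0.00198). The list has 14 genes, of which T had no probe set assigned to it alone.

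Primitive streak markers, a list that overlaps these upstream genes, moved the same way. Of 5 measured of 6, 3 were lower at 12 h and 4 at 24 h. Their mean log2 level per array ran from 8.16 to 8.55 in the day 3 controls and from 6.00 to 6.33 at 24 h, and from 7.36 to 7.90 in the day 2.5 controls and from 6.37 to 6.89 at 12 h. The array ranges did not overlap at either time. The part of this shift in the Mesp1, Mesp2 and Msgn1 values was not tested. Undifferentiated ES cell markers were lower for 3 of 6 at 24 h, with array means of 6.50 to 7.20 against 7.36 to 7.96. Feeder fibroblast markers were higher for 1 of 7 at 24 h, with array means of 4.94 to 5.32 against 4.78 to 5.10. That gene was Thy1, at 0.98 (log2), and the collagens of the list were not called. Primitive endoderm markers were higher for 1 of 7 at both times. That gene was Sox7, at 1.87 and 3.92 (log2), and Afp, Ttr, Amn and Cubn were not called. Of 5 neural markers 4 were measured and 0 was called.

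Of 14 genes that Mesp1 is known to act on or that go with Mesp1 progenitors, 7 were lower and 0 higher at 24 h, with a median of -0.41 on the log2 scale. In the controls 7 of the 14 rose from day 2.5 to day 3 and 0 fell. Cer1, a secreted inhibitor of Nodal, had log2 means of 9.69 ± 0.26 (SD, n = 3) in the day 3 controls and 4.41 ± 0.28 after 24 h, a difference of -5.28 ± 0.32 (SE, limma adjusted p = 2.13e-07). Lhx1, a homeobox factor of the anterior streak and its mesoderm, differed by -3.96 ± 0.30 (SE, log2, limma adjusted p = 1.35e-06). Pdgfra, a receptor on early mesoderm, was at -2.78 (log2, limma adjusted p = 1.39e-06). Snai1, a repressor of epithelial genes during ingression, was at -2.62 (log2, limma adjusted p = 6.52e-07). At 12 h 0 of the 14 was lower and 1 higher: Tbx20, a cardiac T-box factor named here because it is the lone call, differed by 1.23 (log2, limma adjusted p = 0.0008). Cer1 was at -0.91 at 12 h (log2, limma adjusted p = 0.348) and passed with the replicate block (0.0162) and without replicate 2 of control day 2.5 (0.0263), where Pdgfra passed as well (0.0465). Cardiomyocyte markers, 6 of 6 measured, had 0 calls at 12 h or 24 h, with array means of 4.92 to 4.95 in the day 3 controls and 4.82 to 5.19 at 24 h.

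Genes of segmentation, a list that includes targets of Mesp2 and Msgn1, were split. Dll1 also stands in the upstream list, and Ripply2, Uncx and Tbx20 are likewise shared between lists. Of 13 measured, 6 were lower and 0 higher at 24 h, but the list median was -0.07, close to that of all genes. Cyp26a1, the retinoic acid degrading enzyme, averaged 8.70 ± 0.25 (SD, n = 3) in the day 3 controls and 6.50 ± 0.16 after 24 h, a log2 difference of -2.20 ± 0.29 (SE, limma adjusted p = 0.000213). Dll3, a Notch ligand family member, was at -1.39 (log2, limma adjusted p = 0.000123). Epha4, a receptor at segment boundaries, was at -1.02 (limma adjusted p = 0.0066) and Pcdh8, a protocadherin of the presomitic mesoderm, at -0.86 (limma adjusted p = 0.0174). The Epha4 call was lost without all arrays of replicate 2 (0.0667) or of replicate 3 (0.238). The Pcdh8 call was lost without replicate 1 (0.0868) or replicate 2 (0.0611) of control day 3 and without replicate 2 (0.0544) or replicate 3 (0.0565) of induced 24 h. At 12 h Dll3 was the 1 gene called, at -0.74 (limma adjusted p = 0.0485), a call lost without any 1 of the arrays of control day 2.5, induced 12 h and control day 3 (adjusted p from 0.0624 to 0.258). In the controls 3 of the 13 rose between the days. Of 9 somite genes that go with Tcf15, 0 was called at 12 h or 24 h, with a 24 h median of -0.03, Foxd1 at -0.21 (limma adjusted p = 0.487) and Tbx18 at -0.19 (limma adjusted p = 0.62). Somite and skeletal muscle markers likewise had 0 calls among 5.

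Lateral and extraembryonic mesoderm genes that go with Hand1 and Hand2 moved in both directions. Of 12 measured, 3 were higher at 12 h, and at 24 h 2 were higher and 5 lower, with a 24 h median of -0.46 on the log2 scale. Between control day 2.5 and day 3, 7 of the 12 rose and 0 fell, with a median of 1.08. The 24 h differences are thus taken against controls in which many of these genes had risen. Bmp4, a signal that patterns posterior and extraembryonic mesoderm, rose in the controls by 1.10 between the days (limma adjusted p = 0.00264). It was higher still with induction, with log2 means of 8.98 ± 0.19 (SD, n = 3) after 24 h and 7.49 ± 0.16 in the controls. The Bmp4 log2 difference was 1.49 ± 0.15 (SE, limma adjusted p = 2.2e-05) at 24 h and 1.64 ± 0.15 (SE, limma adjusted p = 3.66e-05) at 12 h. Phlda2, an imprinted gene of extraembryonic tissue, was at -1.24 (log2, limma adjusted p = 0.000697) at 24 h. Bmp2, a related signal, was at -1.12 (log2, limma adjusted p = 0.0295), and the call was lost without replicate 1 (0.143) or replicate 3 (0.101) of control day 3 and without replicate 2 or replicate 3 of induced 24 h (0.108 each). Isl1, a factor of cardiac progenitors, was at -1.12 (log2, limma adjusted p = 0.00924), lost without replicate 1 (0.0575) or replicate 3 (0.0577) of control day 3.

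Other bHLH genes were mostly not called or, among those of blood and endothelium, higher. Of 12 twist and mesoderm class genes, which include the myogenic factors, 1 was lower and 0 higher at 24 h, with a median of -0.07. That gene, Twist1, a factor of head and lateral mesoderm, was at -1.15 ± 0.24 (SE, log2, limma adjusted p = 0.00874), a call lost without replicate 1 of control day 3 (0.052). Of 6 blood and endothelial bHLH genes, 3 were higher at 12 h and 5 at 24 h and 0 lower, with a 24 h median of 0.88 that includes Tal1, an induced factor. Tal2, a relative of Tal1, was at 1.76 (log2, limma adjusted p = 0.000632) at 12 h and 1.83 (log2, limma adjusted p = 0.000149) at 24 h. The 12 h call of Tal2 was lost without all arrays of replicate 2 (0.0506) or of replicate 3 (0.0615). Hey1, a Notch effector in arteries, was at 1.96 (log2, limma adjusted p = 7.87e-06) and 0.92 (log2, limma adjusted p = 0.00161), and Hey2 was at 0.84 (log2, limma adjusted p = 0.00831) at 24 h. Without all arrays of replicate 2 the 24 h calls of Hey1 (0.12) and Hey2 (0.131) were lost. The Hey2 call was also lost without replicate 3 (0.0772) and with only the compared groups (0.0511). Of 10 neural and trophoblast bHLH genes measured of 11, 0 was called at 12 h or 24 h, with Neurog3 at 0.41 (limma adjusted p = 0.4) and Ascl2 at 0.38 (limma adjusted p = 0.289). Endothelial markers had array means of 6.73 to 7.62 at 24 h against 5.02 to 5.20 in the controls, and 4 of 6 were higher at 12 h and 3 of 6 at 24 h.

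**Figure D3:**
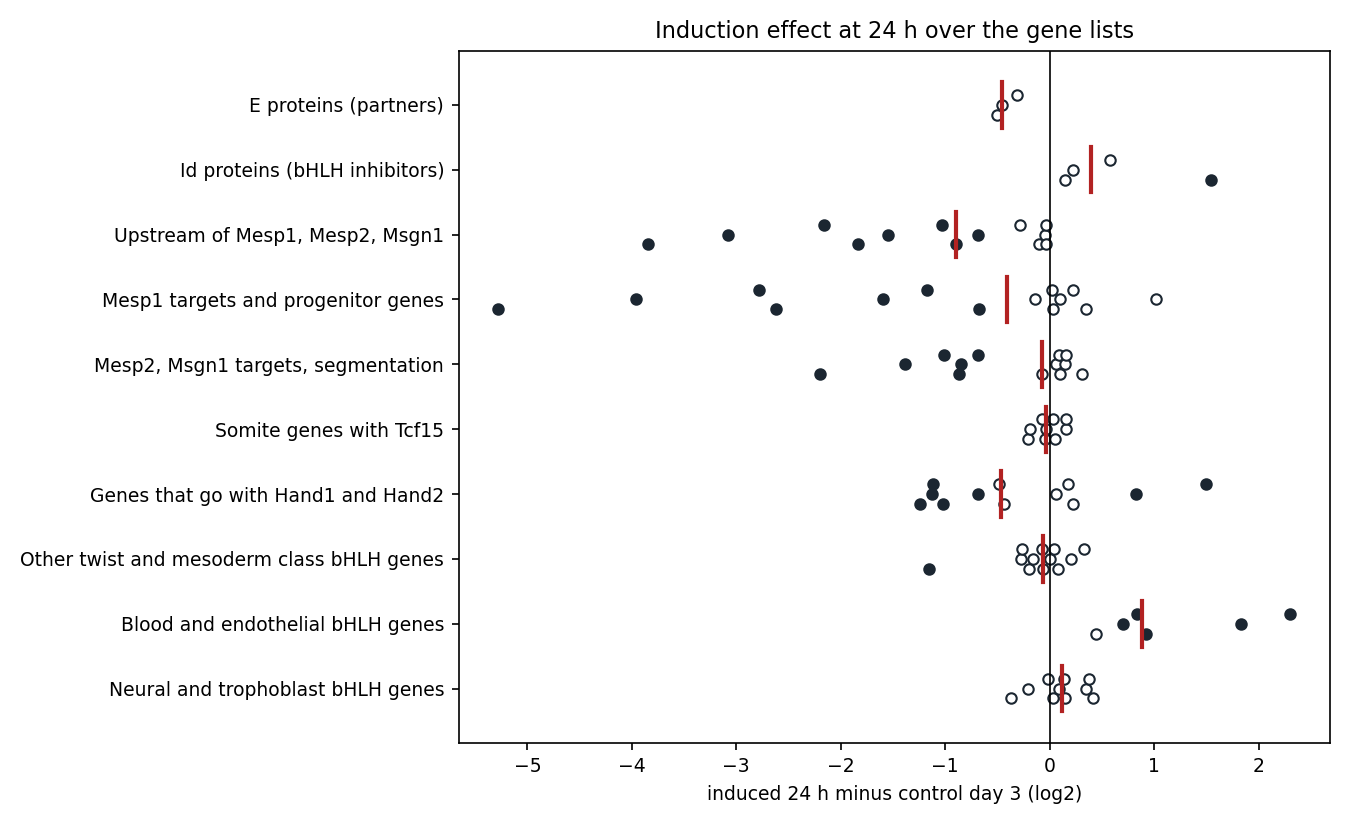
Induced 24 h minus control day 3 on the log2 scale (x axis) for each measured gene of the 10 lists (y axis). Filled circles passed an adjusted p of 0.05, open circles did not, and red bars are list medians. The upstream genes lie at or left of 0 with a median of -0.90, and the blood and endothelial bHLH genes lie right of 0 with a median of 0.88.

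Among themselves the 6 genes were compared by the root mean square difference of their centred log2 levels over the 14 arrays. This value depends on the range of each gene as well as on its course, so genes that vary little come out close. Tcf15 and Hand2, which passed in no contrast, were 0.46 apart. Mesp2 and Msgn1 were the closest pair, at 0.33, and Mesp1 and Tcf15 the farthest, at 1.73. Mesp1 was 1.01 from Mesp2 and 1.18 from Msgn1. Hand1 was nearest to Msgn1, at 0.57. Over all other genes, Asb4 was most like Mesp1 (0.39), followed by Cdh11 and Frzb (0.54 each), Lhx1 (0.58) and Sp5 (0.64). For Mesp2 the nearest were Cpxm2 (0.24), Pkd1l1 (0.25), Myl7 (0.27), Tmem185a and Slc44a5 (0.29 each). The genes nearest to Msgn1 were Slc44a5 (0.21), Pkd1l1 (0.23), Gata4 (0.26), Wnt5a (0.28) and Msx2 (0.29). Slc44a5 and Pkd1l1 thus stood in the lists of both Mesp2 and Msgn1. Near Hand1 stood Msx2 (0.42), Cxcr4 (0.45), Optc (0.49), Spink1 (0.53) and Gata4 (0.54), so Msx2 and Gata4 were near both Hand1 and Msgn1. Tcf15 and Hand2 varied too little over the arrays, with SDs of 0.34 and 0.17, to be ranked in this way. These distances share the 14 arrays and are descriptions without a test.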

How the data were processed

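The authors deposited log2 expression values for 35556 probe sets on 14 Affymetrix arrays, made with RMA in Affymetrix Expression Console, as given in the submitters' processing notes. No version is given there, nor which arrays were normalized together. RMA draws arrays to a common distribution and low signals to a floor, so changes of dim genes can be understated. Of the probe sets 21789 had 1 symbol in the platform annotation, 1621 had several and 12146 were not listed. Per gene the probe set with the highest mean was kept, leaving 19938 genes, and 0 per-sample columns were left unused.

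The 12 arrays of the 4 replicated groups shared 1 fit in limma 3.58.1 under R 4.3.3 (8 residual and 6.05 prior degrees of freedom, Benjamini-Hochberg adjustment over all genes, adjusted p under 0.05), after tests on simulated data. The design text calls the experiments independent, and precision is set by how many arrays there are. Arrays of the same replicate number deviated together within a day (correlations across genes of 0.57, 0.34 and 0.26, and 0.52, 0.16 and 0.26). The main fit has no replicate term, so its SEs and p values ignore this pairing. The numbers were taken as pairs only in the replicate block, 1 of the other settings. Replicate 2 of control day 3 nonetheless lay closer to replicate 3 of induced 24 h (0.38), and across days same-number values went down to 0.041 and -0.0047, so the block has less ground in contrasts between days. The fit with that block leaves 6 residual degrees of freedom. Members and the 10 pathway and 9 marker lists were chosen with earlier results of these data known. All members are named, and per list up to 4 called genes by size at 24 h, or 2 uncalled ones. Genes of a like course were ranked for members with an SD of at least 0.5. Each of 24 alternative settings repeated the fit. RefSeq promoter windows were given for 4 of the 6 members.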

Additional observations from a re-analysis of the deposited data

Results flagged for a closer look

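The induction effect differed between the 2 times, by a direct test of the difference, for Mesp1 and Mesp2. For Mesp1 the effect at 24 h minus that at 12 h was -2.56 on the log2 scale (limma adjusted p = 0.00358). For Mesp2 it was -1.40 (limma adjusted p = 0.0178). In each case the effect was more negative at 24 h in 3 of 3 replicates. The 2 times use different control days, and the controls of both genes rose between those days.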

How the results depend on the processing

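Of 870 member values under the 24 other settings, 819 kept their side of the threshold, 28 lost the call and 23 gained it, and 0 called values changed sign. The 870 and the 819 include the 6 h differences, which have no test. Those were counted as kept where they moved by less than the residual SD. Of the 819, 30 that were not called took the other sign, such as Msgn1 at 12 h (-0.27 to 0.011), Tcf15 at 24 h (-0.23 to 0.11) and Mesp1 between the induced groups (-0.23 to 0.23). The Mesp1 effects at 12 h (-2.04 to -1.61) and 24 h (-4.55 to -4.09) and the Mesp2 and Msgn1 effects at 24 h kept their calls in 24 of 24. The change of the Mesp1 effect lost its call without replicate 2 (0.12) and without replicate 3 (0.076), and that of Mesp2 likewise (0.729 and 0.50). Without replicate 2 the day difference in the controls lost its call for Mesp2 (0.212), Msgn1 (0.0988) and Hand1 (0.379), and without replicate 3 likewise (0.122, 0.0544 and 0.063). Array weights added a call for Tcf15 in induced 24 h against control day 2.5 (0.00533). Of the 28 named list genes, 11 changed a call in some setting at 12 h and 8 at 24 h. The causes were not tested.

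With the replicate block, which pairs the arrays by number, the genes called numbered 441 at 12 h (277 without it), 163 for the change of the effect (85), 344 between control days (151), 742 between induced groups (360) and 2187 for induced 24 h against control day 2.5 (1262). The block changed no other member call than those of Hand1 and Msgn1 given in the text. Array weights gave 798 at 12 h, 2634 at 24 h (main count 1088), 318 for the change, 471, 1495 and 4091 in the same order. Fitting only the compared groups gave 669 at 24 h, 100 between induced groups and 679 against control day 2.5, with 1 member lower in place of 2. Repeated quantile normalization gave 139 genes for the change. Members called higher between the induced groups and against control day 2.5 numbered 1, Hand1, in place of 0 with the block, median centring, dim genes left out, the trended robust fit and array weights.

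Leaving out replicates gave 80 to 366 genes at 12 h, 392 to 1889 at 24 h, 2 to 109 for the change, 17 to 238 between control days, 21 to 727 between induced groups and 487 to 2604 against control day 2.5. Members lower were 1 to 1 at 12 h, 3 to 4 at 24 h, 0 to 3 for the change and 1 to 2 against control day 2.5, and members higher 1 to 4 between control days and 0 to 1 in the last 2 contrasts. Where 1 array or replicate was left out the counts include fits with 2 arrays in a group, which borrow their spread from the others. The 3 arrays per group, and 1 at 6 h, limit the precision.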
